A study of Mus musculus with 6 samples.

Results

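Genes of the endothelin system and of endothelial nitric oxide signalling were followed in mouse visceral fat. There are 10 of them among 55011 gene symbols in the count table: the endothelin ligands Edn1 and Edn3, the converting enzymes Ece1 and Ece2, the receptors Ednra and Ednrb, the nitric oxide synthase Nos3, its regulator Ddah2, and the guanylate cyclase subunits Gucy1a1 and Gucy1b1. They were chosen by name, as peptides, enzymes, receptors and effectors of these opposed vascular pathways, with their levels in the same groups already in view. The differences between groups given for them are therefore descriptions, and no test of them is offered as support.

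Endothelins are peptides secreted mainly by endothelial cells. Each is made as a longer precursor that a converting enzyme of the cell membrane cuts to its active form. The type A receptor on smooth muscle and pericytes constricts vessels, whereas the type B receptor on endothelium triggers nitric oxide release and clears the ligand. Nitric oxide made by Nos3 diffuses to the neighbouring muscle and activates soluble guanylate cyclase, whose cyclic GMP relaxes it. In fat, these vessel signals help set the blood flow that reaches adipocytes, and endothelin can also act on adipocytes themselves.

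The 6 libraries came from whole visceral adipose tissue of male C57BL/6 Foxp3.Cre-YFP mice, labelled bmal1WT in 3 cases (Bmal1WT here) and bmal1KO in the other 3 (Bmal1KO). Every mouse was 30 weeks old, had received LFD, taken here as low-fat diet, for 14 weeks and HFD, high-fat diet, for the following 16, and was sampled at ZT0, zeitgeber time 0 h. The Cre recombinase of the strain name is tied to Foxp3, which encodes the master regulator of regulatory T cells, and is carried by both groups. The labels do not state in which cells Bmal1 (gene symbol Arntl) was deleted, nor that each library came from a separate animal, so the spread between libraries may be partly technical.

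Totals ran from 6514620 to 9529198 counts per library, and a floor of 3 counts corresponded to 0.323 to 0.451 CPM (counts scaled to a common library size), an allowance for counting error only. Bmal1KO replicate 1 was the shallowest library, yet it had counts on 30019 genes against 19009 to 20145 in the other 5. Bmal1WT replicate 1 held 624 CPM over 12 epididymis markers, against 0.906 to 5.26 CPM in the other 5 libraries. Arntl had 273, 242 and 373 counts in Bmal1WT and 324, 289 and 314 in Bmal1KO, so the groups overlapped for the targeted gene in whole-tissue RNA. Foxp3 had 0 counts in the 3 Bmal1WT libraries and 3, 0 and 2 in Bmal1KO. The tissue label was matched by its defining genes: all 12 adipocyte markers, such as Fabp4 and Cidec, and all 20 endothelial markers, such as Cldn5 and Eng, had counts in every library.

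The endothelin genes encode closely related peptides, which bears on how short reads can be assigned to them. The bases that code for the 21 residues of the mature peptide are printed for both ligands from the mm10 transcripts (GENCODE M21), each within 1 exon of the plus strand, at chr13:42303649-42303711 for Edn1 and chr2:174761749-174761811 for Edn3. Capitals mark the positions at which they differ.
Edn1: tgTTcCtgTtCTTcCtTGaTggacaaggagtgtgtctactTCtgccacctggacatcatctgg
Edn3: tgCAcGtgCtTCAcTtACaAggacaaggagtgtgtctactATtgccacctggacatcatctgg
Of 63 positions, 13 differ, and the longest run of identical bases is 21, shorter than the reads of 38 bases. A read that lies wholly within this stretch therefore meets at least 1 differing position.

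Edn1, the ligand that vascular endothelium secretes, lay at chr13:42301476-42307990 (mm10) and was the endothelin gene with counts in every library. Its counts were 78, 50 and 69 in Bmal1WT and 21, 37 and 38 in Bmal1KO. On the scale of TMM-scaled library sizes these were 8.90, 5.86 and 7.42 CPM in Bmal1WT and 3.16, 4.19 and 4.72 CPM in Bmal1KO. All 3 Bmal1KO libraries stood below all 3 Bmal1WT libraries. The means were 7.39 ± 1.52 CPM (SD, n = 3) and 4.02 ± 0.792 CPM (SD, n = 3), a fitted log2 fold change of -0.88 with SE 0.39. With 1 library left out in turn it ran from -1.01 to -0.71, and without both replicates numbered 1, the libraries with epididymis counts and with the most genes, it was -0.57. In bulk tissue such a difference can come from fewer cells of a type or from less RNA per cell, and these cannot be told apart.

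Edn3, an endothelin known for its role in neural crest cells (chr2:174760619-174784042), had 10 counts in Bmal1KO replicate 1 and 0 in the other 5 libraries. A count of 0 in those 5 allowed at most 0.372 CPM. The gene was under the filter on low counts and was not fitted. Edn2, the remaining endothelin gene, had 0 counts in all 6 libraries.

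Ece1, the main converting enzyme for endothelin precursors in vessels (chr4:137862237-137965229), was the member with the most counts summed over the libraries, although Ednrb had more in Bmal1KO replicates 2 and 3. It had 991, 940 and 1201 counts in Bmal1WT and 484, 372 and 496 in Bmal1KO. These gave 113.0, 110.1 and 129.2 CPM in Bmal1WT and 72.8, 42.1 and 61.5 CPM in Bmal1KO. The groups did not overlap, and the highest Bmal1KO library stayed far below the lowest Bmal1WT library. The means were 117.5 ± 10.3 CPM (SD, n = 3) and 58.8 ± 15.5 CPM (SD, n = 3), with a fitted log2 fold change of -1.0 (SE 0.21). Leaving out 1 library moved it between -1.18 and -0.81, and leaving out both replicates numbered 1 gave -1.20.

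Ece2, the related converting enzyme known mainly from neural and endocrine tissue (chr16:20629828-20646485), had 7 counts in Bmal1KO replicate 1 and 0 in the other 5 libraries. In GENCODE M21 it shares 2937 bases, 57.5% of its exons, with Gm49333 on the same strand, which had 0 counts throughout, and reads in the shared bases cannot be assigned to either gene. Ece2 and Edn3 thus had the same pattern, with counts in 1 library alone. The same library had at least 7 counts on 877 genes that were at 0 in the other 5, where each of the other libraries had between 13 and 37 such genes. Whether the counts of Edn3 and Ece2 have the same source as those was not tested.

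Ednra, the constrictor type A receptor (chr8:77663031-77724464), had 31, 43 and 99 counts in Bmal1WT and 45, 56 and 73 in Bmal1KO. Its levels were 3.54, 5.04 and 10.65 CPM in Bmal1WT and 6.77, 6.34 and 9.06 CPM in Bmal1KO. The Bmal1WT libraries held both the lowest and the highest of the 6 values, and the Bmal1KO libraries lay between them. The means were 6.41 ± 3.75 CPM (SD, n = 3) and 7.39 ± 1.46 CPM (SD, n = 3). The fitted log2 fold change was 0.20 (SE 0.45), and it was -0.08 with Bmal1WT replicate 1 left out and 0.79 with Bmal1WT replicate 3 left out.

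Ednrb, the type B receptor (chr14:103814625-103844402), was counted far more often, with 815, 444 and 320 counts in Bmal1WT and 399, 406 and 535 in Bmal1KO. Its levels were 93.0, 52.03 and 34.4 CPM in Bmal1WT and 60.0, 46.0 and 66.4 CPM in Bmal1KO. Here too the Bmal1WT libraries held both extremes. The means of 59.8 ± 30.0 CPM (SD, n = 3) and 57.5 ± 10.4 CPM (SD, n = 3) differed by less than the spread within Bmal1WT, with a log2 fold change of -0.06 (SE 0.31) that turned to 0.045 when libraries were scaled by size alone. The highest value belonged to Bmal1WT replicate 1, the library with the epididymis counts, and without it the log2 fold change was 0.42. The part of that tissue in the value was not tested. Without Bmal1WT replicate 3, the lowest library, it was -0.33.

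The 3 Bmal1WT libraries stood in opposite orders for the receptors, since the one lowest in Ednra was the highest in Ednrb. A ratio within a library is free of the scaling between libraries, and per exon length Ednrb exceeded Ednra 33.75-fold, 13.25-fold and 4.15-fold in Bmal1WT replicates 1 to 3. In Bmal1KO the ratio was 11.4, 9.31 and 9.41. Ednrb was thus the more abundant receptor RNA in all 6 libraries, by a factor that varied widely in Bmal1WT and little in Bmal1KO. On the log2 scale the ratio of counts was 3.26 ± 1.51 (SD, n = 3) in Bmal1WT and 2.96 ± 0.163 (SD, n = 3) in Bmal1KO, and the groups overlapped.

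Nos3, the endothelial nitric oxide synthase (chr5:24364810-24384474), had 204, 183 and 271 counts in Bmal1WT and 130, 134 and 77 in Bmal1KO. Its levels were 23.3, 21.4 and 29.2 CPM in Bmal1WT and 19.55, 15.2 and 9.55 CPM in Bmal1KO. The groups did not overlap, although the highest Bmal1KO library came close to the lowest Bmal1WT library. The means were 24.6 ± 4.03 CPM (SD, n = 3) and 14.8 ± 5.01 CPM (SD, n = 3), with a fitted log2 fold change of -0.74 (SE 0.29). It ran from -0.99 without Bmal1KO replicate 1 to -0.51 without Bmal1KO replicate 3. The libraries do not mark the strand, and 25.2% of the exon bases of Nos3 lie opposite Gm15587 and 7.12% opposite Atg9b. Those genes had 0 to 10 and 0 to 18 counts per library, and their reads cannot be told apart from those of Nos3 in the shared bases.

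Ddah2, an enzyme of the family that clears methylated arginines (endogenous inhibitors of nitric oxide synthases), lay at chr17:35059035-35062095. It had 317, 278 and 328 counts in Bmal1WT and 238, 361 and 316 in Bmal1KO, or 36.2, 32.6 and 35.3 CPM against 35.8, 40.9 and 39.2 CPM. Relative to its mean it had the narrowest spread of the fitted members. The groups overlapped, at means of 34.7 ± 1.87 CPM (SD, n = 3) and 38.6 ± 2.60 CPM (SD, n = 3), and the log2 fold change of 0.16 (SE 0.18) stayed between 0.11 and 0.21 with any 1 library left out.

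Gucy1a1 and Gucy1b1 encode the subunits that form the nitric oxide receptor, soluble guanylate cyclase, and lie near each other on chromosome 3 (82092427 to 82145789 and 82032006 to 82074689). Gucy1a1 had 80, 60 and 102 counts in Bmal1WT and 72, 45 and 92 in Bmal1KO, with means of 9.04 ± 1.97 CPM (SD, n = 3) and 9.11 ± 3.49 CPM (SD, n = 3). Gucy1b1 had 11, 12 and 22 counts in Bmal1WT and 20, 14 and 14 in Bmal1KO, with means of 1.68 ± 0.603 CPM (SD, n = 3) and 2.11 ± 0.781 CPM (SD, n = 3). Both subunits overlapped between the groups. Their log2 fold changes were 0.01 (SE 0.38) and 0.32 (SE 0.65), and the sign of each changed with the library left out, from -0.20 to 0.29 and from -0.02 to 0.66. At these counts a change of moderate size in Gucy1b1 was not detectable.

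Although the subunits work as a heterodimer, their RNA was not balanced. Per exon length, Gucy1a1 exceeded Gucy1b1 4.10-fold, 2.82-fold and 2.61-fold in Bmal1WT and 2.03-fold, 1.81-fold and 3.70-fold in Bmal1KO. The excess was present in all 6 libraries, and the groups overlapped.

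**Figure D1:**
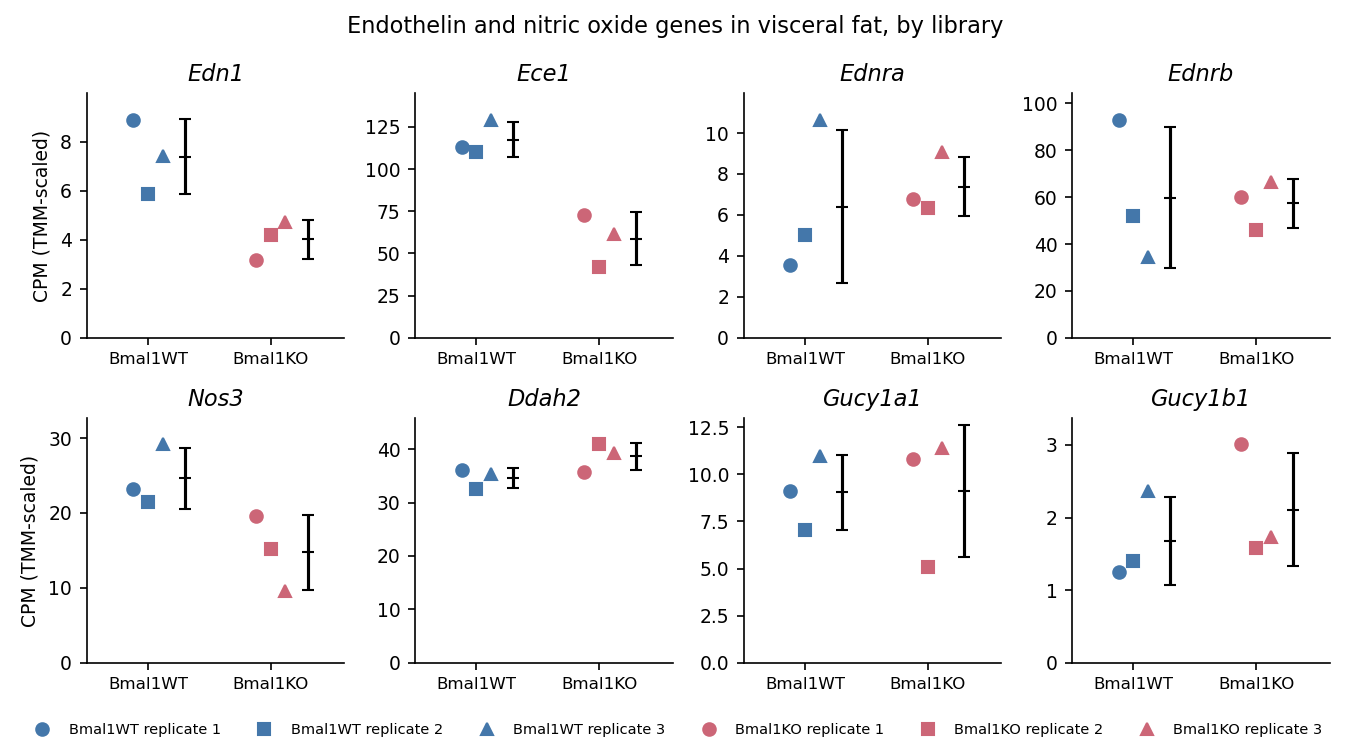
Level of each fitted gene by library, in CPM on TMM-scaled library sizes with axes from 0, with points for the 3 Bmal1WT and 3 Bmal1KO libraries and a bar for the mean ± SD of each group. Edn1, Ece1 and Nos3 were lower in every Bmal1KO library than in any Bmal1WT library, and the other 5 genes overlapped.

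Counted together, 8 of the 10 members passed the filter on low counts, and Edn3 and Ece2 did not. Of the 8, 3 (Edn1, Ece1 and Nos3) were lower in Bmal1KO without overlap between the groups, where 7.85% of all 13859 genes fitted were lower in this way. None was higher without overlap, where 7.83% of all genes were. With edgeR's quasi-likelihood test and Benjamini-Hochberg adjustment over all genes, 0 of the 8 passed in either direction, against 0% of all genes higher and 0% lower, with 1290 genes at an unadjusted p under 0.05. By sign, 4 members were higher and 4 lower, with a median log2 fold change of -0.03 beside 0.02 over all genes fitted, and with library size alone as the scaling 5 were higher and 3 lower. The signs of Ednra, Ednrb, Gucy1a1 and Gucy1b1 depended on the setting or on the library left out. Ece1 alone among the members passed under any alternative: with DESeq2 (adjusted p = 0.0075), with edgeR and no filter on low counts (0.000322) and with edgeR without Bmal1KO replicate 1 (0.0314), within a range of 0.000322 to 0.695 over 14 alternatives. The ligand, its converting enzyme and the nitric oxide synthase are the members that stood lower. Both receptors, both cyclase subunits and Ddah2 did not separate the groups.

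**Figure D2:**
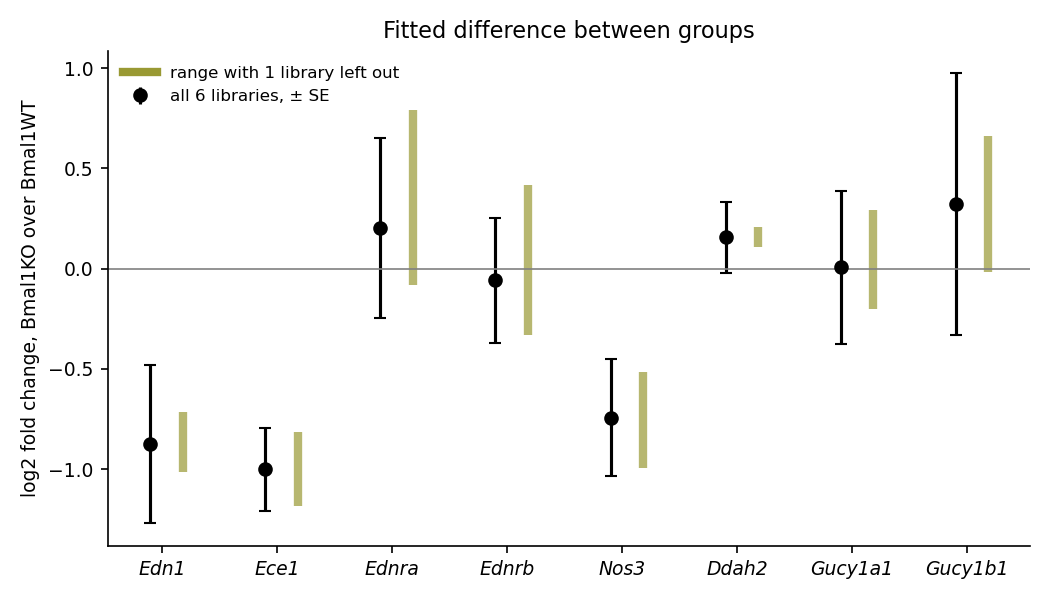
Fitted log2 fold change of each gene, Bmal1KO over Bmal1WT, as a point with its SE for all 6 libraries, and as a bar for the range when 1 library is left out. The bars of Edn1, Ece1 and Nos3 stayed below 0, that of Ddah2 stayed above 0, and those of the other 4 genes crossed 0.

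Levels of different genes were compared per kb of exon, on the mean of the 6 libraries. Ddah2 was highest at 23.0 ± 1.86 CPM per kb (SD, n = 6), followed by Ece1 at 16.6 ± 6.46 and Ednrb at 13.7 ± 4.72. The ranges of these 3 neighbours overlapped. Nos3 at 4.77 ± 1.64 CPM per kb (SD, n = 6) lay below every Ednrb value, with its highest library at 7.06 against the lowest for Ednrb at 8.07. Edn1 followed at 2.67 ± 1.00 CPM per kb, then Gucy1a1 at 1.30 ± 0.364, Ednra at 1.26 ± 0.475 and Gucy1b1 at 0.482 ± 0.170 (SD, n = 6 for each). From Nos3 to Gucy1b1, each gene overlapped its neighbour in this order. Edn3 at 0.0609 and Ece2 at 0.0343 CPM per kb rested on Bmal1KO replicate 1. The enzyme that activates the ligand was therefore far more abundant as RNA than the ligand itself.

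**Figure D3:**
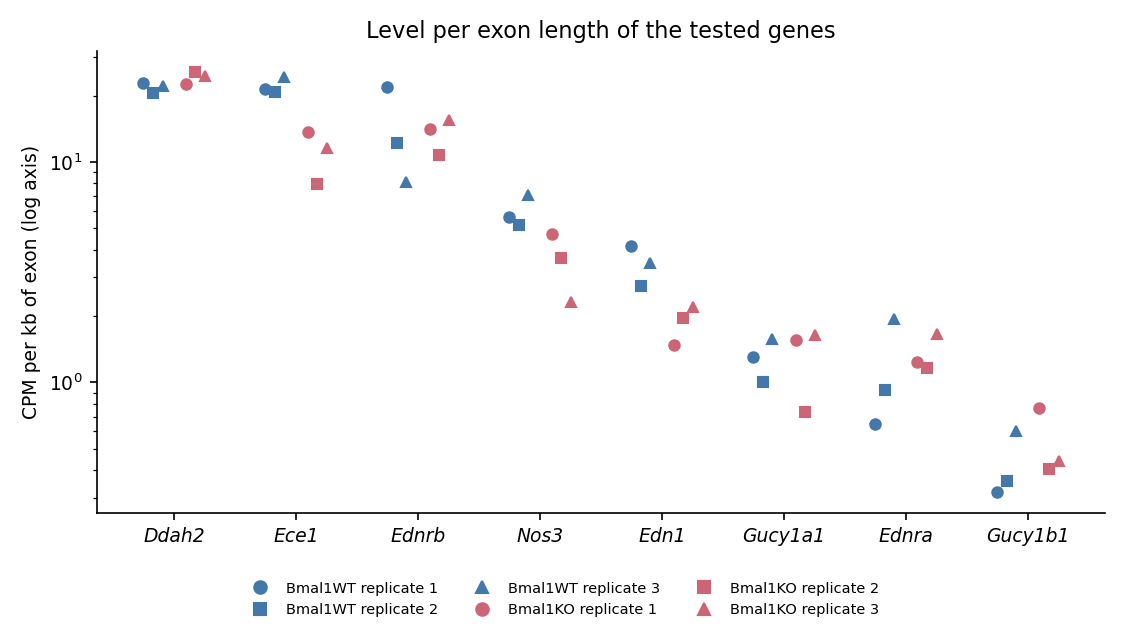
Level of the 8 fitted genes in CPM per kb of exon on a log axis, ordered by the mean of 6 libraries, with 1 point per library. Ddah2, Ece1 and Ednrb form the upper level, Nos3 and Edn1 the middle, and Gucy1a1, Ednra and Gucy1b1 the lower.

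The constrictor ligand and the dilator's synthase were also set against each other within libraries. Per exon length, the ratio of Edn1 to Nos3 was 0.739, 0.528 and 0.492 in Bmal1WT and 0.312, 0.533 and 0.953 in Bmal1KO. Nos3 was the more abundant RNA in all 6 libraries. The Bmal1KO ratios lay on both sides of the Bmal1WT ratios, so the balance of these genes did not separate the groups although each gene alone did.

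Because Edn1 and Nos3 are mainly endothelial in fat, the level of endothelial RNA was measured from 20 endothelial markers. All 20 had a lower fitted level in Bmal1KO, with a median log2 fold change of -0.64, and 6 of the 20 were lower without overlap, where 7.85% of all genes were. None passed the test (smallest adjusted p = 0.414, edgeR). Without Bmal1WT replicate 3, the library with the highest mean of these markers, the median was -0.25 and 17 of 20 were lower, with Kdr, Sox17 and Vwf above 0. Without Bmal1KO replicate 3, 19 of 20 were lower, all but Tek. The median was -0.44 without Bmal1KO replicate 2 and -0.88 without Bmal1KO replicate 1. In the latter fit Robo4 and Gpihbp1 passed, among 110 of all 14247 genes that passed as lower. Their summed level was 814 to 1580 CPM in Bmal1WT and 573 to 888 CPM in Bmal1KO, and 0 of them was at 0 in any library. Cldn5, a tight junction protein of endothelium, averaged 246 ± 96.4 CPM in Bmal1WT and 109 ± 29.4 CPM in Bmal1KO (SD, n = 3 each). Its log2 fold change of -1.18 (SE 0.30) passed with DESeq2 and with no filter. Gpihbp1 and Robo4 passed with no filter but not with DESeq2. Eng, an endothelial receptor subunit, averaged 145 ± 34.3 and 106 ± 32.8 CPM (SD, n = 3 each).

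The members were then expressed relative to the mean log2 level of these markers in the same library, a view added after the values of the members had been seen. For Ece1 this difference was 2.00, 2.26 and 1.56 log2 units in Bmal1WT and 1.41, 1.43 and 1.83 in Bmal1KO. For Edn1 it was -1.63, -1.92 and -2.52 in Bmal1WT and -3.02, -1.82 and -1.81 in Bmal1KO, and for Nos3 -0.27, -0.09 and -0.58 in Bmal1WT and -0.48, -0.02 and -0.83 in Bmal1KO. On this scale all 3 genes that separated the groups in CPM overlapped, and their mean differences were -0.38 for Ece1, -0.20 for Edn1 and -0.13 for Nos3. The subtraction left only 0.195% of all genes lower without overlap, so nothing is read from this overlap.

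Subtracting a marker mean that was lower in Bmal1KO raises every gene there: the median of all 13859 genes moved to 0.65 on this scale, and 19.4% of them were higher in Bmal1KO without overlap and 0.195% lower. Against that background Ednra was higher in every Bmal1KO library, at -1.98, -1.25 and -0.91 against -2.90, -2.13 and -2.01 in Bmal1WT. Gucy1b1 was likewise higher, at -3.09, -3.10 and -3.14 against -4.24, -3.81 and -4.07, and so was Gucy1a1, with means of -1.15 ± 0.509 and -1.74 ± 0.199 (SD, n = 3 each). Ddah2 and Ednrb overlapped, with mean differences of 0.80 and 0.69. Nothing is read from the separation of these genes, which in CPM overlapped. The mean of the markers itself, relative to its Bmal1WT mean, was -0.11, -0.41 and 0.52 log2 units in Bmal1WT and -0.15, -0.96 and -0.81 in Bmal1KO.

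**Figure D4:**
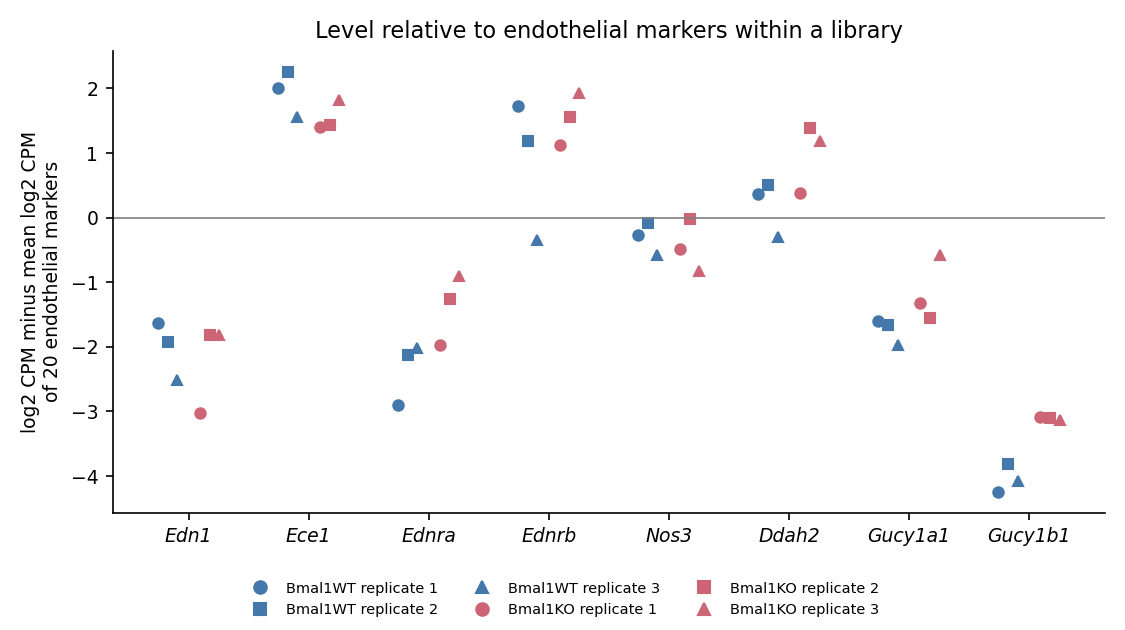
Level of each fitted gene relative to endothelial markers in the same library, as log2 CPM minus the mean log2 CPM of 20 markers, with 1 point per library. Edn1, Ece1 and Nos3 overlapped between the groups, and Ednra, Gucy1a1 and Gucy1b1 were higher in all 3 Bmal1KO libraries. On this scale the median of all genes stood at 0.65, with 19.4% of them higher without overlap and only 0.195% lower.

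Smooth muscle cells and pericytes, in which Ednra and the cyclase act, were measured from 14 mural markers, of which 12 were fitted. Of these, 11 had a lower and 1 a higher fitted level in Bmal1KO, with a median of -0.37 and a summed level of 569.5 to 630 CPM in Bmal1WT and 386 to 526 CPM in Bmal1KO. None passed the test. Without Bmal1WT replicate 3 the median was -0.11 with 8 lower and 4 higher, and without Bmal1KO replicate 1 it was -0.56, where Kcnj8 and Rgs5 passed. Acta2, smooth muscle actin, averaged 234 ± 28.95 CPM in Bmal1WT and 168 ± 16.5 CPM in Bmal1KO (SD, n = 3 each), whereas Mcam averaged 133 ± 17.2 and 112 ± 55.6 CPM (SD, n = 3 each). All 12 adipocyte markers were lower by sign (median -0.37), with summed levels that overlapped, at 25150 to 29780 CPM in Bmal1WT and 15060 to 31440 in Bmal1KO. Without Bmal1KO replicate 1 their median was -0.83 and 6 of 12 passed, and without Bmal1KO replicate 3 it was -0.16. Of all 14247 genes fitted without Bmal1KO replicate 1, 46 passed as higher and 110 as lower. All 10 T cell markers and all 10 mesothelial markers were higher by sign, with medians of 1.63 and 0.36. The mesothelial median was 0.15 without Bmal1WT replicate 3, with 6 of 10 higher, and 0.79 without Bmal1WT replicate 2. For 10 macrophage and 10 stromal progenitor markers, 8 and 7 were higher by sign, with medians of 0.33 and 0.07. The macrophage median was 0.09 without Bmal1KO replicate 3 and 0.74 without both replicates numbered 1. The stromal median was 0.0008 without Bmal1WT replicate 3 and 0.49 without both replicates numbered 1. None of these markers passed in the fit as reported, with all 6 libraries. With DESeq2 the T cell markers Cd3e, Cd3g and Lat and the macrophage marker C1qc passed. With edgeR and no filter on low counts these passed too, as did Kcnj8, Rgs5, Pparg, Lrrn4 and Upk3b. C1qc also passed without Bmal1KO replicate 1, and the T cell marker Lck without both replicates numbered 1. The part of these markers in the values of the members was not tested.

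Beyond the members, 17 genes of endothelin processing and receptor signalling were followed, 15 of them fitted. None passed the test, 6 were higher and 9 lower by sign, and the median log2 fold change was -0.05. With library size alone as the scaling the split was 10 higher and 5 lower, and the median turned to 0.15 without either Bmal1WT replicate 3 or Bmal1KO replicate 3. The genes of smallest p were Mcpt4 and Cma1, chymases of mast cells that can cleave endothelin precursors. Mcpt4 had 18.6, 28.1 and 17.0 CPM in Bmal1WT and 81.65, 48.35 and 70.1 CPM in Bmal1KO, with a log2 fold change of 1.65 (SE 0.26, adjusted p = 0.265, edgeR). Cma1 had 42.1, 42.2 and 17.65 CPM in Bmal1WT and 116.1, 67.8 and 122.1 CPM in Bmal1KO, with a log2 fold change of 1.59 (SE 0.33, adjusted p = 0.318, edgeR). The groups did not overlap for either gene, where 7.83% of all genes fitted were higher without overlap. Their direction was opposite to that of Ece1. No list of mast cell markers was followed, and the part of mast cell number in these values was not tested. Both passed with DESeq2 and with no filter, and Mcpt4 also without Bmal1KO replicate 1 (edgeR adjusted p = 0.0341), within ranges of 1.43e-08 to 0.695 for Mcpt4 and 1.61e-09 to 0.695 for Cma1 over the alternatives.

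Downstream of the receptors, Gna11, a G protein subunit that couples them to phospholipase C, averaged 124 ± 9.88 CPM in Bmal1WT and 77.4 ± 13.4 CPM in Bmal1KO (SD, n = 3 each). Its log2 fold change was -0.68 (SE 0.17, adjusted p = 0.414, edgeR), and the groups did not overlap. Without Bmal1KO replicate 1 it passed at -0.83 (adjusted p = 0.0440, range 0.0440 to 0.695 over the alternatives). The related subunit Gnaq had a log2 fold change of 0.01 (SE 0.19). Rgs4, which speeds the switching off of such G proteins, had a log2 fold change of -1.04 (SE 0.50, adjusted p = 0.551, edgeR) with overlapping groups. Gnaq was named after its values were seen.

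Of 32 further genes of nitric oxide and cyclic GMP signalling, 24 were fitted and 0 passed, with 9 higher and 15 lower by sign and a median of -0.11 (12 and 12 with library size alone as the scaling). Agxt2, which also breaks down methylated arginines, was at 0 in every library. Ddah1, the relative of Ddah2, averaged 35.01 ± 1.20 CPM in Bmal1WT and 27.0 ± 3.94 CPM in Bmal1KO (SD, n = 3 each) without overlap, a log2 fold change of -0.38 (SE 0.20, adjusted p = 0.576, edgeR). Ddah2 itself was slightly higher by sign, but at 0.16 (SE 0.18) it lay within 1 SE of 0, so no difference in direction is read from these relatives. Cav1, the caveolar protein that holds Nos3 inactive, had 2762, 3056 and 3317 CPM in Bmal1WT and 3101, 1800 and 1660 CPM in Bmal1KO. Its groups overlapped through Bmal1KO replicate 1, and its log2 fold change was -0.48 (SE 0.25, adjusted p = 0.576, edgeR), or -0.82 and past the threshold without that library (adjusted p = 0.0411, range 0.0404 to 0.807 over the alternatives).

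Cyb5r3, a reductase that keeps the haem of guanylate cyclase responsive to nitric oxide, averaged 839.5 ± 84.7 CPM in Bmal1WT and 648 ± 38.6 CPM in Bmal1KO (SD, n = 3 each) without overlap (log2 fold change -0.37, SE 0.16, adjusted p = 0.521, edgeR). Pde3a, a phosphodiesterase inhibited by cyclic GMP, was higher in every Bmal1KO library, at 4.22 ± 0.345 and 6.81 ± 1.99 CPM (SD, n = 3 each), with a log2 fold change of 0.69 (SE 0.40, adjusted p = 0.613, edgeR). The inducible synthase Nos2 and the neuronal synthase Nos1, also named after their values were seen, had 2 to 20 and 4 to 49 counts per library, fewer than Nos3 in each.

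Nos3 and Edn1 respond to blood flow, so 8 genes of the flow response of endothelium were followed, all of them fitted. Of these, 6 were higher and 2 lower by sign, the median was 0.23, and 0 passed the test. Without Bmal1KO replicate 3 the median was 0.03, and without Bmal1WT replicate 2 it was 0.42. Klf2, a flow-induced transcription factor known to drive Nos3, averaged 7.41 ± 1.38 CPM in Bmal1WT and 10.8 ± 1.66 CPM in Bmal1KO (SD, n = 3 each), a log2 fold change of 0.55 (SE 0.32, adjusted p = 0.614, edgeR). Thbd, the anticoagulant receptor thrombomodulin and another gene under Klf2, averaged 48.6 ± 2.11 and 65.9 ± 11.4 CPM (SD, n = 3 each), a log2 fold change of 0.44 (SE 0.18, adjusted p = 0.495, edgeR). These were the 2 of the 8 that were higher without overlap, where 7.83% of all genes fitted were. Both were named for their small p, a choice that favours genes whose groups do not overlap. They stood on the other side of 0 from Nos3, and any link between these genes and Nos3 was not tested. In whole tissue the RNA of Klf2 and Thbd cannot be assigned to endothelium. The endothelial markers had a median of -0.64 and the T cell markers one of 1.63, and the part of any cell type in these values was not tested. Mef2c, a regulator of Klf2, and Piezo1, a channel opened by flow, overlapped, with log2 fold changes of 0.40 (SE 0.29) and -0.27 (SE 0.24).

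Among 26 genes of other vasoactive systems, 18 were fitted, with 8 higher and 10 lower by sign, a median of -0.15 (-0.42 without Bmal1KO replicate 1, and -0.05 at the other end, without Bmal1KO replicate 2) and 0 that passed. Agtr1b, an angiotensin receptor gene, was at 0 in every library. Calcrl, the receptor for adrenomedullin, had 6.96, 7.03 and 8.07 CPM in Bmal1WT and 15.8, 13.5 and 11.5 CPM in Bmal1KO, a log2 fold change of 0.89 (SE 0.29, adjusted p = 0.431, edgeR) without overlap. Its ligand Adm stood on the other side, at 33.1 ± 9.97 CPM in Bmal1WT and 20.9 ± 5.55 CPM in Bmal1KO (SD, n = 3 each), with overlapping groups (log2 fold change -0.66, SE 0.29). The apelin receptor Aplnr and the angiotensin precursor Agt stood at -1.17 (SE 0.42) and -0.94 (SE 0.46) on the same scale, again with overlap. Aplnr was at -0.70 without Bmal1WT replicate 3, and it passed with edgeR and no filter (adjusted p = 0.00236, range 0.00236 to 0.709 over the alternatives). Without Bmal1KO replicate 1, Agt was at -1.75 and passed (edgeR adjusted p = 0.0266, range 0.0266 to 0.775 over the alternatives).

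**Figure D5:**
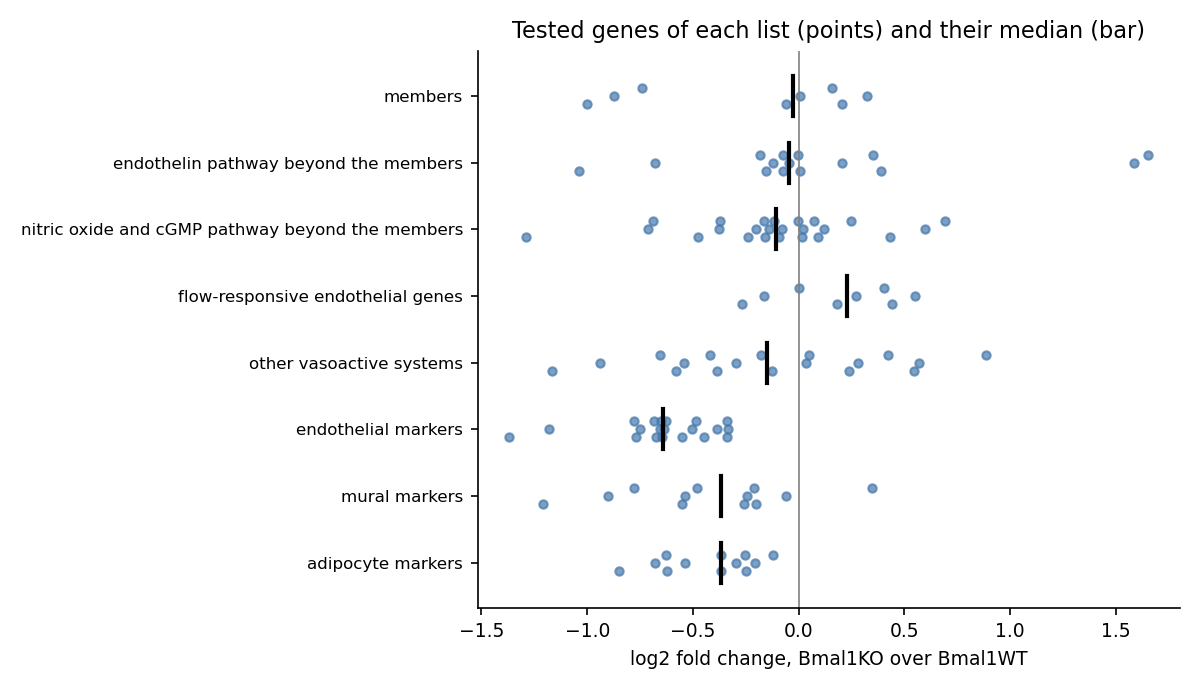
Fitted log2 fold change, Bmal1KO over Bmal1WT, of every fitted gene of the members, of the further pathway lists and of endothelial, mural and adipocyte markers, with points for genes and a bar for the median. Endothelial markers all lay below 0 with a median of -0.64, the 8 flow genes had a median of 0.23, and the members were split 4 to 4.

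The genes whose profile over the 6 libraries came closest to that of a member were found by the root-mean-square difference of log2 CPM after centring each gene on its own mean, among 8827 genes with at least 10 CPM. For Edn1 these were Col12a1, Exoc7 and Dph7, at 0.101, 0.116 and 0.133 log2 units, where the median gene was at 0.529. Col12a1, a collagen, had 27.0, 20.5 and 23.7 CPM in Bmal1WT and 12.2, 13.25 and 16.1 CPM in Bmal1KO. For Nos3 they were Itga7, Aqp7 and Hrct1, at 0.0780, 0.0887 and 0.0970 against a median of 0.554. Itga7, an integrin subunit, had 235.7, 253.4 and 306.4 CPM in Bmal1WT and 195.3, 160.2 and 101.7 CPM in Bmal1KO, and Aqp7 is a glycerol channel that is also among the adipocyte markers here. None of these 6 genes is among the endothelial markers listed. Without Bmal1KO replicate 1, Itga7 and Aqp7 passed edgeR's test at log2 fold changes of -1.02 and -0.89.

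For Ednrb the closest genes were Tial1, Tmem185b and Ube3c, at 0.176, 0.191 and 0.193 log2 units against a median of 0.519, less close than those found for Edn1, Nos3 and Gucy1b1. For Gucy1b1 they were Arap3, Nfrkb and Lifr, at 0.0998, 0.101 and 0.105 against 0.4825. These likenesses describe 6 libraries, and with so many genes compared some come close to any profile.

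The promoters of Edn1 and Ece1 are shown because these members were both lower in Bmal1KO, as the 250 bases before the start in the RefSeq table (GRCm38.p6, the assembly of mm10), plus strand, chr13:42301226-42301475 for Edn1 and chr4:137861987-137862236 for Ece1, the latter being 1 of 4 windows listed. The promoter of Ddah2, which did not separate the groups, is given beside them (chr17:35058785-35059034, plus strand), with its motif match in capitals.
Edn1: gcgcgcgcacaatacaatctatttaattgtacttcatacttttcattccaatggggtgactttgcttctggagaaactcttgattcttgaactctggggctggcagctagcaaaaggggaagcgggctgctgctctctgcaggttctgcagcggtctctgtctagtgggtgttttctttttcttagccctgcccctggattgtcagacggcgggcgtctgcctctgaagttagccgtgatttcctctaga
Ece1: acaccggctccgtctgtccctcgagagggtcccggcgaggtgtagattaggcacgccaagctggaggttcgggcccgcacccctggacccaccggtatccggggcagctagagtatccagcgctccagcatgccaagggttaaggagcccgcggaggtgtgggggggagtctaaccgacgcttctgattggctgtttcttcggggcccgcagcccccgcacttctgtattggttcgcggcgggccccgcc
Ddah2: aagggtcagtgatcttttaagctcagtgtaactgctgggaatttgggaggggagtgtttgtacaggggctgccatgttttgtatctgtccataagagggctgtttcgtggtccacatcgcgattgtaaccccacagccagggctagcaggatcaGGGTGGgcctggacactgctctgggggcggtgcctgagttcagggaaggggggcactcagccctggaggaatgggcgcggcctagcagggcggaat
The windows were searched on both strands for the E-box CACGTG that BMAL1 and its partner bind, the GATA motif AGATAA, the AP-1 motif TGANTCA and the CACCC box CCACCC bound by Klf factors. Windows were used for 9 of the 10 members, all but Nos3, the remaining member that was lower without overlap, and none of the 9 held an E-box, GATA or AP-1 match, where 6.02%, 9.99% and 6.75% of 32851 windows did. The CACCC box occurred in the windows of Edn3, Ece2 and Ddah2 and in 28.1% of all windows. The motifs were chosen, and the windows limited to the bases before the start, after the sequences had been looked at. The start used for Ednrb lay 701 bases from its GENCODE M21 gene start and that for Gucy1a1 139 bases, against 0 to 23 for the others. Other start sites of these genes were not searched. A missing match says only that these letters are not in these 250 bases.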

How the data were processed

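The authors deposited raw counts for each gene symbol. Per the submitters' processing notes, STAR 2.7.3a, mm10 and featureCounts were used. Not given in the sources used here are the annotation, the strand setting and how multi-mapping reads were handled. Per the labels' protocols, libraries were made from 2 ng of RNA with an oligo(dT) primer and Nextera XT and sequenced as paired reads of 38 bases. They mark no strand and carry no molecular identifiers, so floors cover counting error only. The test was that of edgeR 4.0.16 under R 4.3.3 (filterByExpr, TMM, quasi-likelihood F-test with robust dispersion, no covariates, Benjamini-Hochberg adjustment over 13859 genes, threshold 0.05). It was also run on simulated data, from which no power to find changes of a given size is claimed here. The SE is the absolute coefficient over the square root of F. P-values measure only the spread between these samples. Exon lengths came from GENCODE M21. Genes named for small p tend by that choice to have groups that do not overlap. The members, lists and the rule for naming genes (the 4 of smallest p per pathway list, the 2 most abundant per marker list, the 3 nearest profiles) were chosen with earlier results of these data known. Alternatives were other scalings, DESeq2 1.42.0, limma 3.58.1 (voom), other filters, a replicate block, other exon lengths and libraries left out.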

Additional observations from a re-analysis of the deposited data

How the results depend on the processing

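For 50 named genes under 14 alternatives there were 700 values. Of these, 645 kept their direction and side of the threshold, 21 newly passed it and 34 in 12 genes changed sign. No gene passed in the fit as reported, so none could cease to pass. A value that kept its side therefore did not pass in either fit. DESeq2 called 36 genes higher and 24 lower, and edgeR with no filter on low counts called 108 and 78. Leaving out 1 library, or both replicates numbered 1, gave 0 to 46 higher and 0 to 110 lower. The extremes 46 and 110 came without Bmal1KO replicate 1, and leaving out both replicates numbered 1 gave 11 and 50. Without Bmal1KO replicate 2 there were 6 and 0, and without Bmal1WT replicate 1 there were 0 and 1. Ece1 passed with DESeq2 (adjusted p = 0.0075), with no filter (0.000322) and without Bmal1KO replicate 1 (0.0314), within a range of 0.000322 to 0.695 over its alternatives. The cause was not tested.

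No label pairs the libraries by replicate number. Deviations of same-numbered libraries from their group means correlated at -0.07, 0.09 and -0.03, and those of differently numbered libraries at -0.08 to 0.11. With 3 libraries per group these values cannot decide whether libraries were paired. The replicate block called 0 genes in either direction and turned the log2 fold changes of Ednrb (0.038), Gucy1a1 (-0.046) and Ube3c (0.0097). Library size alone, which moved the median of all genes to 0.11, turned Ednrb (0.045) and Ube3c (0.062). Voom turned Ednrb (0.022) and Gucy1a1 (-0.13), and DESeq2 (-0.0070) and no filter (-0.015) turned Gucy1a1. With libraries left out, log2 fold changes that turned ran from -0.082 to 0.79 for Ednra, -0.33 to 0.42 for Ednrb, -0.20 to 0.29 for Gucy1a1, -0.18 to 0.66 for Gucy1b1, -0.60 to 0.49 for Col3a1, -0.023 to 0.74 for C1qb, -0.074 to 0.41 for Tial1, -0.45 to 0.057 for Tmem185b, -0.24 to 0.25 for Ube3c, -0.14 to 0.56 for Arap3, -0.27 to 0.51 for Nfrkb and -0.053 to 0.62 for Lifr. Edn3 and Ece2, with 10 and 7 counts in Bmal1KO replicate 1 alone, were not fitted. That library was the shallowest, and the source of these counts was not tested.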
